A study of Mus musculus with 2 samples.

Results

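The elastic fiber and microfibril genes Eln, Fbn1, Fbn2, Mfap2, Mfap4, Mfap5, Fbln1, Fbln2, Fbln5 and Lox were followed by cell type, region and stage in single cells of the mouse gastroesophageal squamo-columnar junction (GE-SCJ) and of the adjoining esophagus and stomach. They were taken as a named list, and all 10 were found among the 19550 genes measured. Wild-type C57BL/6 mice were sampled without treatment at embryonic day 15 (E15), embryonic day 19 (E19), as pups 2 days after birth and as adults 8 weeks old. The labels give 6, 2, 2 and 3 mice for these stages, which were pooled and marked with 1 oligonucleotide tag for each region and stage. The tissues were minced and digested with collagenase, with no sort for a cell type. Of the 7808 cells, 11 combinations of region and stage held 143 to 1403 cells and 2302227 to 20070615 unique molecular identifiers (UMIs) each, and adult stomach was not analysed here.

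Elastic fibers form when elastin, the extensible core protein, is laid down on a scaffold of microfibrils and cross-linked there. The fibrillins Fbn1 and Fbn2 build the microfibrils, and fibrillin-2 is best known from fetal tissue. The microfibril-associated glycoproteins Mfap2 and Mfap5 bind fibrillin, Mfap4 binds both elastin and collagen, and the fibulins Fbln1, Fbln2 and Fbln5 link elastin to microfibrils, cells and basement membranes. Lox, lysyl oxidase, makes the cross-links of elastin and collagen. In the gut wall these proteins come mainly from fibroblasts, smooth muscle cells and vessel walls.

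All 10 are protein-coding genes in GENCODE M21, an annotation of GRCm38, which is the genome build of the counts. Eln lies at chr5:134702593-134747323 and Fbn1 at chr2:125300594-125507993, both on the minus strand. Mfap2 lies at chr4:141010418-141015984, Mfap4 at chr11:61485431-61488900 and Mfap5 at chr6:122505845-122529290, all on the plus strand. Fbln1 lies at chr15:85205949-85286535 and Fbln2 at chr6:91212455-91272540, both on the plus strand, whereas Fbln5 lies at chr12:101746565-101819055 on the minus strand.

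RefSeq start sites on GRCm38.p6 were matched for 5 of the 10 genes, namely Fbn1, Mfap2, Fbln1, Fbln2 and Fbln5. The 250 bases before the first start site are shown for 2 fibulins that took different courses into the adult esophagus, Fbln1 (higher in the adult) and Fbln5 (level). The Fbln1 window is chr15:85205699-85205948 on the plus strand and the Fbln5 window is chr12:101819120-101819369 on the minus strand, each written 5′ to 3′ on the strand of its gene. Capitals mark matches to the motifs searched on both strands. Of 32851 windows of 250 bases, the TATA box TATAAA was found in 12.4%, the GC box GGGCGG in 32.7%, the AP-1 motif TGANTCA in 6.75%, the TEAD motif GGAATG in 12.6% and the SMAD motif CAGACA in 17.1%.
Fbln1: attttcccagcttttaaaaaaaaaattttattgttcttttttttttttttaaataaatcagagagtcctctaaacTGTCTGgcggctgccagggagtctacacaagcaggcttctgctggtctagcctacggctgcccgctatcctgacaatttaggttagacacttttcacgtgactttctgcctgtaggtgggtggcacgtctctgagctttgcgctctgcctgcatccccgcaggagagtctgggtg
Fbln5: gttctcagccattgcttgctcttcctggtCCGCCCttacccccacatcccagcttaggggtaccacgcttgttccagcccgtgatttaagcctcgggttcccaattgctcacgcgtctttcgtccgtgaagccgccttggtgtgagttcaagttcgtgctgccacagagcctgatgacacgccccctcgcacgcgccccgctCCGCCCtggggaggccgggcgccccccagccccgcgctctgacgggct
The Fbln1 window held the reverse complement of CAGACA 175 bases before the start site. The Fbln5 window held the reverse complement of GGGCGG at 221 and at 48 bases before the start site. Each of the 2 genes had 2 matched start sites, and the windows of the second are not printed. Before its second site Fbln1 held the reverse complements of GGGCGG at 11 and of CAGACA at 234 bases. Fbln5 held CAGACA 15 bases before its second site, so the 2 motifs do not separate the genes. These matches are descriptions of the letters in each window.

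Levels are in counts per 1000000 UMIs (CPM). For each gene, UMIs were added up across a group's cells and divided by the group's UMI total, and values in parentheses are exact 95% Poisson intervals. For shares these are exact 95% Clopper-Pearson intervals. Log2 ratios have 1 UMI added to each sum and carry an exact interval conditional on both sums. All of these intervals cover counting error only. Because the mice of a region and stage cannot be told apart, each group is 1 sample, no difference was tested, and a gene is said to rise or fall where the ratio of its CPM reached 2-fold. A 3′ UMI count does not scale with transcript length, but the capture of each gene is unknown, so levels are compared between groups and not between genes.

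Cell types are the authors' deposited labels. Among 6 stromal markers (Col1a1, Col3a1, Dcn, Lum, Postn and Pdgfra) all were present in the 3442 cells of the stromal label, with a summed level of 14356 to 27782 CPM by stage. The 6 smooth muscle markers summed to 818 to 2464 CPM in these cells against 25756 to 44289 CPM in the smooth muscle label. The second stromal label, Stromal-2, held mesothelial markers at 1405 to 3913 CPM from E15 to the pup. Stromal cells numbered 347, 739, 151 and 31 in the E15, E19, pup and adult esophagus, 350, 588, 82 and 15 in the GE-SCJ, and 360, 701 and 78 in the stomach. Their median depth from E15 to the adult was 10087, 9110.5, 4258 and 5358.5 UMIs. The 15 adult GE-SCJ cells stand apart, since 8 of them had mostly prenatal cells among their 15 nearest neighbours, and their values are given separately below and enter no ratio. Such cells were fewer among pup stromal cells, at 5 of 151, 10 of 82 and 14 of 78 in esophagus, GE-SCJ and stomach, and were kept. Leaving out cells with neighbours mostly on the other side of birth lost 0 and gained 2 of the 2-fold stage calls in stroma.

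Most UMIs of each of the 10 genes lay in the mesenchymal labels. The stromal label, with 3442 of 7808 cells, held between 53.2% (Fbln2) and 91.0% (Mfap5) of all UMIs of a gene. Together with smooth muscle and Stromal-2 it held 74.7% of the Fbln2 UMIs and 96.7% of the Lox UMIs, the lowest and highest of the 10. With stages pooled, Fbln2 was at 160 CPM in neural and 110 CPM in endothelial cells. It was lower in stromal cells (65.9 CPM) and smooth muscle (5.81 CPM). At E15, however, endothelial Fbln2 was below the stromal level. Pooled Fbln5 was at 59.5 CPM in neural and 57.8 CPM in endothelial cells, above smooth muscle (28.3 CPM) and below stroma (115 CPM). In pups, by contrast, neural and endothelial cells both held more Fbln5 than any stromal region. Over all regions and stages, Fbn2 was at 844 CPM in stromal cells, 385 in smooth muscle, 265 in Stromal-2, 199 in neural and 55.6 CPM in endothelial cells. Fbn1 was at 544, 208, 111, 25.9 and 64.0 CPM in the same labels. Both fibrillins were therefore highest in the stromal label, and the neural label stood out by holding Fbn2 with little Fbn1.

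Pooled levels also depend on the stages that make up a label, since 52 of 139 Stromal-2 cells but 311 of 3442 stromal cells were from pups. Fbln2 was higher in Stromal-2 than in stroma at each stage with enough cells, at 586 against 72.2 CPM at E15, 297 against 109 in pups, and at 779.7 CPM at E19, where no stromal region held over 58.9 CPM. Eln was at 248 CPM in Stromal-2 against 293 in stromal cells at E15, 863 against 556 at E19 and 652 against 2738 in pups. The regions were mixed unequally, since 15 of 26 Stromal-2 cells at E15 came from the stomach and 46 of 60 at E19 from the GE-SCJ. Stromal Eln was at 210.1 CPM in that stomach group and 724 CPM in that GE-SCJ group, so no order is drawn before birth. In pups every stromal region held at least 2297 CPM. Mfap2 was higher in neural cells than in smooth muscle at E15 (302 against 232 CPM) and E19 (306 against 181), but not in pups (197 against 261). In the columnar label and the larger squamous label 9 of the 10 genes lay at or below 23.9 CPM, the exception being Fbln1, at 70.0 CPM in columnar and 53.3 CPM in squamous cells. The immune label was used as the level in cells that should lack these genes. Over 8 immune groups of at least 20 cells it ranged from 3.49 to 51.4 CPM for Eln, 0 to 76.4 for Fbn1, 12.2 to 187 for Fbn2 and 0 to 233 CPM for Mfap5. None of these groups was adult.

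**Figure D1:**
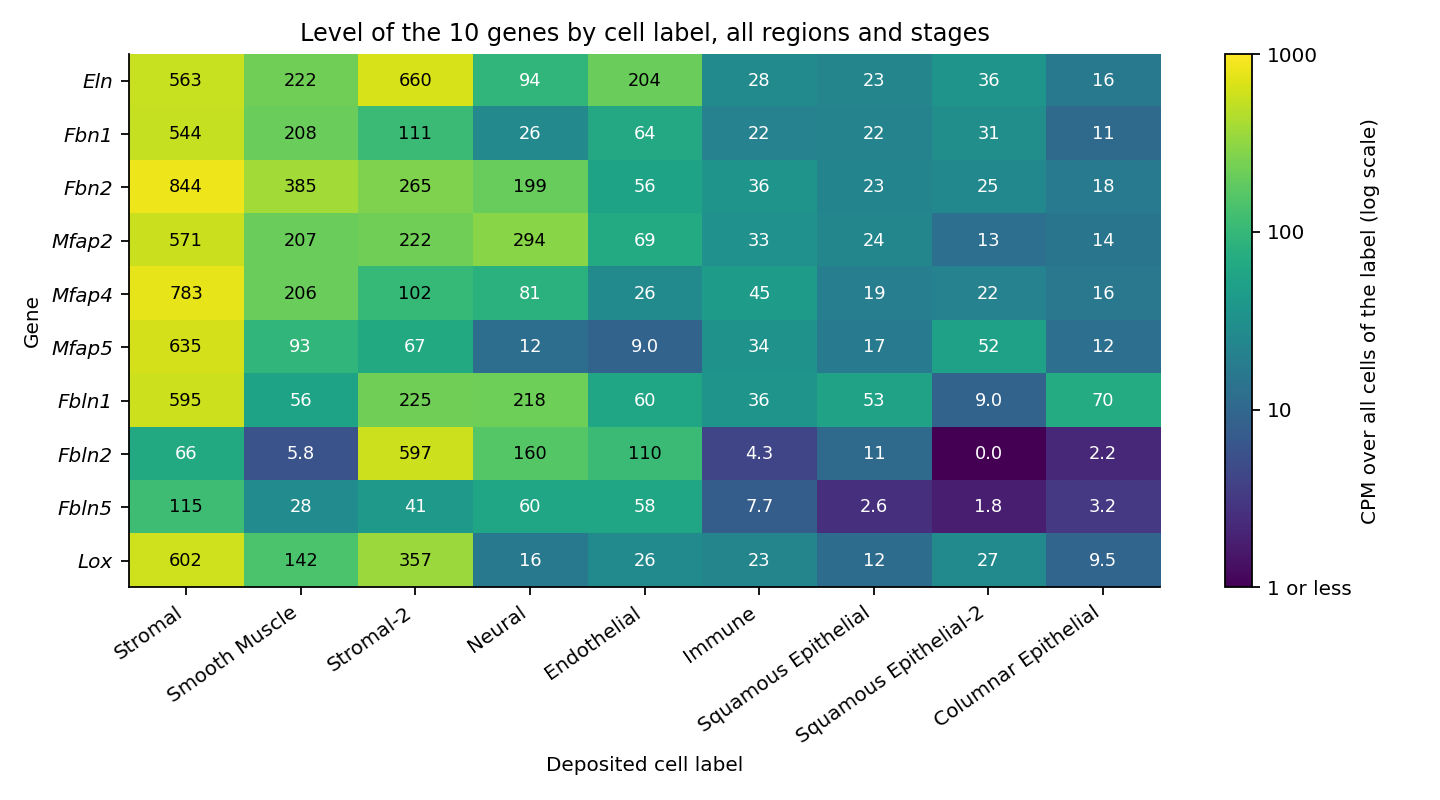
Heat map of the level of each of the 10 genes (rows) in each deposited cell label (columns), in CPM over all cells of the label, with the value printed in each cell and a logarithmic color scale. The stromal column is the brightest for 8 genes, while Fbln2 (597 CPM) and, with stages pooled, Eln (659.9 CPM) are highest in Stromal-2, although Eln of pups is higher in stroma.

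Across the 10 stromal groups of at least 20 cells, the genes differed widely in how much they varied. Mfap4 spanned 1.94-fold from its lowest to its highest group and Fbln5 3.01-fold. Fbn1 spanned 4.10-fold, Fbln1 4.52-fold, Mfap2 5.52-fold and Lox 9.21-fold. The widest spans were those of Eln with 17.4-fold, Fbn2 with 23.9-fold, Mfap5 with 30.3-fold and Fbln2 with 47.3-fold. Single groups set the ends of several of these spans, the adult esophagus being the lowest group for Fbn2, Mfap2 and Lox and the highest for Fbln1 and Fbln2.

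**Figure D2:**
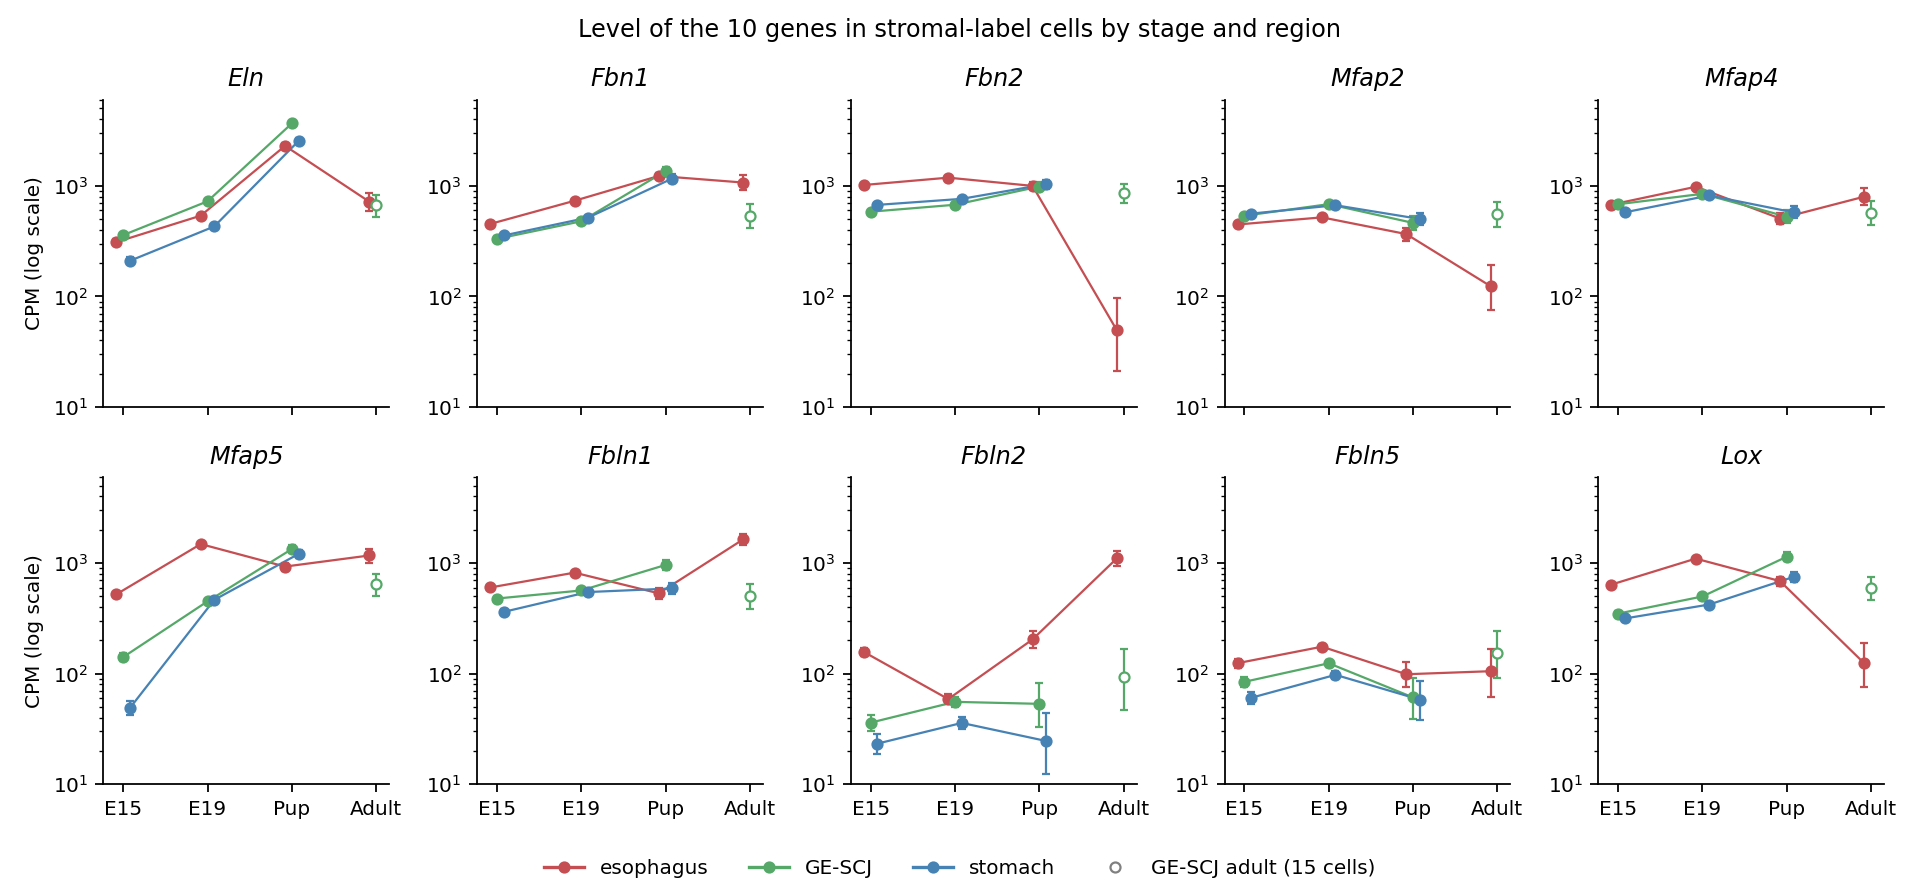
Level of each of the 10 genes in stromal-label cells, in CPM on a logarithmic axis, by stage (E15, E19, pup, adult) and region (color). Bars are exact 95% Poisson intervals, and the open symbol is the adult GE-SCJ group of 15 cells. Eln peaks in the pup in every region, Fbn2 is at 49.5 CPM in the adult esophagus, and Fbln2 is at 1102 CPM there.

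Elastin took the steepest course around birth. In esophageal stromal cells Eln was at 310.3, 537, 2297 and 718 CPM at E15, E19, pup and adult. In the GE-SCJ it was at 359, 724 and 3663 CPM at E15, E19 and pup, and in the stomach at 210.1, 429 and 2544 CPM. In each region the pup was the highest stage by a wide margin, with intervals of 2179.6 to 2418 CPM in the esophagus and 3476 to 3857 CPM in the GE-SCJ. The log2 ratio of pup over E19 was 2.10 (2.01 to 2.18) in the esophagus, 2.34 (2.25 to 2.43) in the GE-SCJ and 2.57 (2.47 to 2.67) in the stomach. From E15 to E19 it was 0.79, 1.01 and 1.03 in the same order, so that the GE-SCJ and stomach reached 2-fold narrowly and lost it under 4 and 1 other ways of counting. From pup to adult esophagus Eln fell by 1.67 on the log2 scale (ratio -1.67 (-1.95 to -1.39)).

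The fibrillins were followed next, with the question how fetal Fbn2 stood against Fbn1. The Fbn2 gene is on chromosome 18, as is Lox. In esophageal stromal cells Fbn1 was at 452, 733, 1228 and 1071 CPM at E15, E19, pup and adult, and Fbn2 was at 1018, 1185, 999 and 49.5 CPM. In the GE-SCJ Fbn1 was at 332, 478 and 1359 CPM and Fbn2 at 584, 674 and 986 CPM at E15, E19 and pup. In the stomach Fbn1 was at 356, 516 and 1165 CPM and Fbn2 at 673, 763 and 1035 CPM. Fbn1 was thus higher at each later stage up to the pup in all 3 regions, whereas Fbn2 stayed within 584 and 1185 CPM until the pup and was low only in the adult esophagus.

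The Fbn1 log2 ratio of pup over E19 was 0.75 in the esophagus, 1.51 in the GE-SCJ and 1.18 in the stomach, so that Fbn1 rose in the GE-SCJ and stomach. The corresponding Fbn2 ratios of -0.25, 0.55 and 0.44 did not reach 2-fold. From E15 to E19 neither fibrillin reached 2-fold, with ratios of 0.53 to 0.70 for Fbn1 and of 0.18 to 0.22 for Fbn2. From pup to adult esophagus the Fbn1 ratio was -0.19 (-0.44 to 0.05), an interval that included no change, while Fbn2 fell from 999 (922 to 1079.9) to 49.5 (21.4 to 97.6) CPM, a log2 ratio of -4.17 (-5.30 to -3.23). The adult level rested on 8 UMIs in 5 of 31 cells and lay inside the range of the immune groups (12.2 to 187 CPM). That range holds no adult group. Its top was the E19 esophagus, followed by the E15 esophagus at 51.4 CPM, and the esophageal and GE-SCJ pup groups were at 24.4 and 22.5 CPM. In the squamous cells of the same adult esophagus Fbn2 was at 17.1 (12.9 to 22.3) CPM.

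As a share of the fibrillin UMIs, Fbn2 declined stage by stage in stromal cells. In the esophagus it made up 69.2% (68.0 to 70.4), 61.8% (61.0 to 62.6), 44.8% (42.2 to 47.5) and 4.42% (1.93 to 8.52) from E15 to the adult, where 8 of 181 fibrillin UMIs were Fbn2. In the GE-SCJ it made up 63.8% (62.1 to 65.4), 58.5% (57.3 to 59.7) and 42.0% (38.8 to 45.3) at E15, E19 and pup. In the stomach the share was 65.4% (63.9 to 66.9), 59.6% (58.6 to 60.7) and 47.0% (43.9 to 50.2). Within each region the intervals of successive stages did not overlap. The regions spanned 63.8% to 69.2% at E15. They spanned 58.5% to 61.8% at E19, and pups 42.0% to 47.0%. The decline to the pup came with a higher Fbn1 level in every region, whereas the decline to the adult came with the low Fbn2 level.

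**Figure D3:**
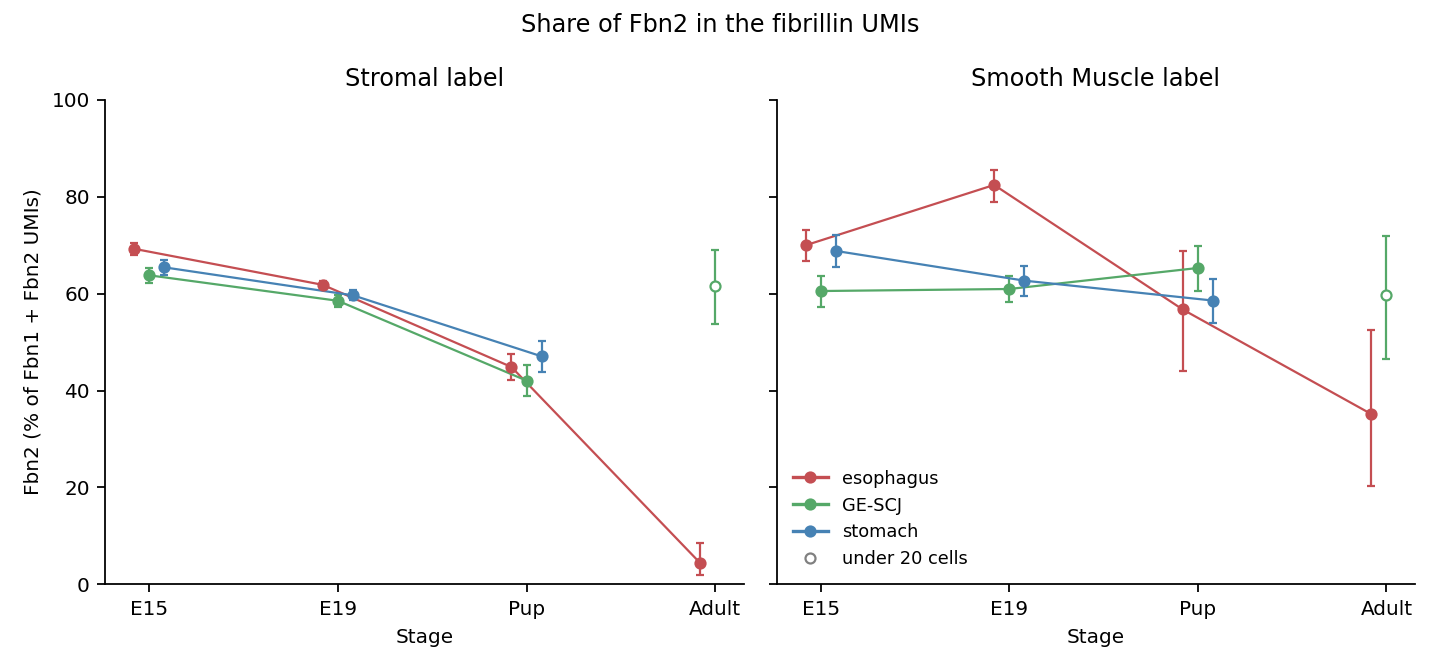
Share of Fbn2 in the summed Fbn1 and Fbn2 UMIs, in percent, by stage and region (color), for the stromal label (left) and the smooth muscle label (right). Bars are exact 95% Clopper-Pearson intervals, and open symbols mark groups under 20 cells. In stromal cells of the esophagus the share runs from 69.2% at E15 to 4.42% in the adult, while in GE-SCJ smooth muscle it lies between 60.5% and 65.3% up to the pup.

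The prenatal part of this decline was seen in 2 of the 3 deposited clusters that hold most prenatal stromal cells. In the cluster with most E15 and E19 esophageal cells (204 and 678 cells) the Fbn2 share was 72.6% at E15 and 61.5% at E19. In the largest cluster it was 66.0% and 60.5% in the GE-SCJ and 68.4% and 60.6% in the stomach. In the third cluster the esophagus did not follow, with 64.5% in 136 cells at E15 and 66.6% in 50 cells at E19, whereas the GE-SCJ had 57.8% and 55.2% and the stomach 60.7% and 56.1%.

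Counting cells gave the same order for the adult esophagus. After thinning each stromal cell to 2000 UMIs, the share with at least 1 Fbn2 UMI was 80.8%, 86.4%, 79.9% and 10.7% at E15, E19, pup and adult, the last being 3 of 28 cells. For Fbn1 it was 57.6%, 72.8%, 74.8% and 64.3%. Without thinning, the Fbn2 shares were 99.1%, 99.6%, 90.1% and 16.1%. Thinned immune cells, whose median depth before thinning was 11985, 10302.5 and 6469 UMIs from E15 to the pup, had an Fbn2 UMI in 1.33%, 6.41% and 2.47% of cells. Adult esophageal stromal cells thus kept Fbn1 in most cells and held Fbn2 in few.

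The adult GE-SCJ did not show the adult esophageal pattern, but its 15 stromal cells were of mixed kind. Fbn2 was at 862 (702 to 1047) CPM and Fbn1 at 538 (413 to 688) CPM, giving an Fbn2 share of 61.6% (53.7 to 69.1). The 8 cells with mostly prenatal neighbours had Fbn2 at 903 and Eln at 366 CPM. The 7 others had Fbn2 at 741, Fbn1 at 876 and Eln at 1549.9 CPM. Of the 6 cells that fell in the cluster of postnatal stromal cells, 3 held Fbn2, at 803 (503 to 1216) CPM over the 6, with a share of 45.8%. In the esophagus, 30 of 31 adult cells fell in that cluster, and without the 3 cells that had mostly prenatal neighbours Fbn2 was at 55.5 CPM. The adult GE-SCJ thus held Fbn2 with and without the cells in doubt, in very few cells, and whether the tag assigned them rightly was not tested.

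**Figure D4:**
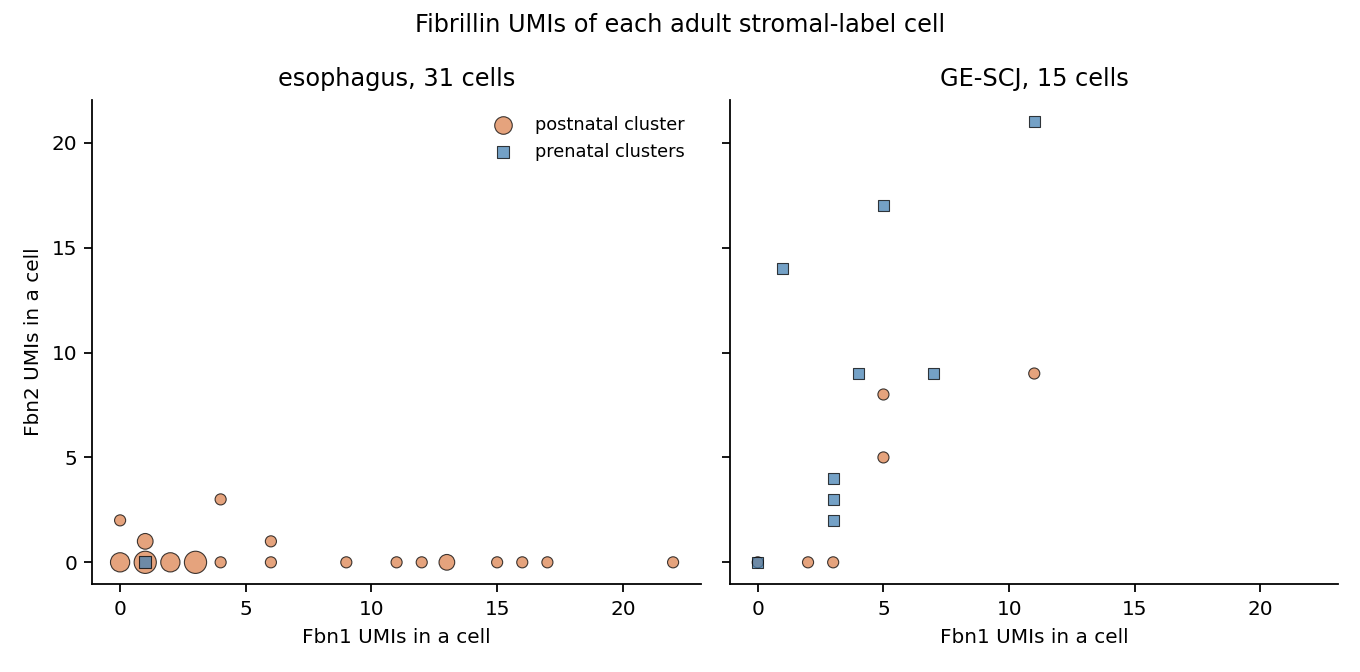
Fbn1 UMIs (horizontal axis) against Fbn2 UMIs (vertical axis) in each adult stromal-label cell of the esophagus (left, 31 cells) and the GE-SCJ (right, 15 cells). Orange circles are cells of the postnatal cluster, blue squares cells of the prenatal clusters, and the symbol area grows with the number of cells at a point. In the esophagus 5 of 31 cells hold an Fbn2 UMI, while in the GE-SCJ 8 cells of the prenatal clusters and 3 of the postnatal cluster do.

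The 2 microfibril-associated glycoproteins took different courses. Mfap2 in esophageal stromal cells was at 447, 519, 366 and 124 CPM at E15, E19, pup and adult. It was at 537, 683 and 462 CPM in the GE-SCJ and at 561, 667 and 502 CPM in the stomach at E15, E19 and pup. Up to the pup no step of Mfap2 reached 2-fold, with log2 ratios of pup over E19 of -0.50, -0.55 and -0.41, and it fell in the adult esophagus (-1.50 (-2.22 to -0.85)), where 20 UMIs were counted.

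Mfap5 was at 522, 1483, 929 and 1169.8 CPM in the esophagus at E15, E19, pup and adult. It was at 141, 450.2 and 1336 CPM in the GE-SCJ and at 49.0, 465 and 1207 CPM in the stomach at E15, E19 and pup. At E15 the regions were thus ordered esophagus, GE-SCJ and stomach with no overlap of intervals, and by the pup the esophagus was the lowest of the 3. Mfap5 rose from E15 to E19 in every region, with log2 ratios of 1.51 (1.44 to 1.58) in the esophagus, 1.67 (1.54 to 1.81) in the GE-SCJ and 3.24 (3.03 to 3.46) in the stomach. From E19 to the pup it rose again in the GE-SCJ (1.57) and the stomach (1.38), against a ratio of -0.67 in the esophagus. As a share of the Mfap2 and Mfap5 UMIs together, Mfap5 went from 8.03% at E15 to 41.0% at E19 and 70.6% in the pup stomach, from 20.8% to 39.7% and 74.3% in the GE-SCJ, and from 53.9% to 74.1%, 71.7% and 90.4% in the esophagus up to the adult.

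After thinning to 2000 UMIs, Mfap5 was found in 48.5%, 81.7%, 58.3% and 82.1% of esophageal stromal cells from E15 to the adult. In the GE-SCJ it was found in 13.5%, 40.7% and 66.2% and in the stomach in 8.64%, 39.3% and 56.4% of cells. The share of cells with Mfap5 therefore moved with the summed level. The level of the E15 stomach lay inside the range of the immune groups (0 to 233 CPM), of which the E15 stomach group itself had 4.89 CPM.

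Mfap4 was the steadiest of the 10 genes, at 676, 980.3, 506 and 798 CPM in the esophagus at E15, E19, pup and adult. In the GE-SCJ it was at 682, 847 and 526 CPM and in the stomach at 576, 818 and 576 CPM at E15, E19 and pup. E19 was the highest and the pup the lowest stage in each region except the stomach, where E15 and the pup had the same level within their intervals. None of its steps reached 2-fold, the largest being a log2 ratio of -0.95 for pup over E19 in the esophagus.

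Of the fibulins, Fbln1, a protein of elastic fibers and basement membranes, was at 601, 818, 532 and 1634 CPM in the esophagus at E15, E19, pup and adult. It was at 478, 565 and 960.2 CPM in the GE-SCJ and at 361, 546 and 589 CPM in the stomach at E15, E19 and pup. The adult esophagus was the highest group and the only one above 1000 CPM, and the step from pup to adult was a rise of 1.62 (1.38 to 1.86) on the log2 scale. Between E19 and pup the log2 ratio was -0.62 in the esophagus, 0.77 in the GE-SCJ and 0.11 in the stomach.

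Fbln2, which binds fibrillin and elastin, separated the regions most in the pup. In the esophagus it was at 157, 58.9, 204 and 1102 CPM at E15, E19, pup and adult. In the GE-SCJ it was at 36.1, 55.6 and 53.3 CPM and in the stomach at 23.3, 35.8 and 24.6 CPM at E15, E19 and pup. Levels of the GE-SCJ and stomach thus stayed low, while the esophagus fell from E15 to E19 (-1.41 (-1.60 to -1.23)), rose from E19 to the pup (1.80 (1.50 to 2.09)) and rose again to the adult (2.43 (2.10 to 2.77)). The GE-SCJ and stomach pup values rested on 21 and 11 UMIs.

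Fbln5, which tethers elastin to cells and is needed for fiber assembly, was at 124, 175, 98.7 and 105 CPM in the esophagus at E15, E19, pup and adult. It was at 84.4, 124 and 61.0 CPM in the GE-SCJ and at 60.5, 97.6 and 58.2 CPM in the stomach at E15, E19 and pup. The order esophagus, GE-SCJ, stomach held at E15 and E19 without overlap of intervals, and the GE-SCJ and stomach pups did not differ beyond theirs. From E19 to the pup, when Eln rose in the same cells, the Fbln5 log2 ratio was -0.81 (-1.19 to -0.44), -0.97 (-1.61 to -0.40) and -0.69 (-1.31 to -0.14) in the 3 regions, none of which reached 2-fold. Its adult over pup ratio in the esophagus was 0.15 (-0.69 to 0.93), beside the rise of Fbln1, whose window is printed above next to that of Fbln5.

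Lox was at 639, 1096, 686 and 124 CPM in the esophagus at E15, E19, pup and adult. It was at 349, 499 and 1141 CPM in the GE-SCJ and at 315, 422 and 748 CPM in the stomach at E15, E19 and pup. Like Mfap5, it was highest at E19 in the esophagus and highest in the pup in the other 2 regions. From E19 to the pup Lox rose in the GE-SCJ (1.20 (1.05 to 1.34)), with log2 ratios of 0.83 in the stomach and -0.67 in the esophagus. It fell from pup to adult esophagus (-2.40 (-3.11 to -1.77)), to 20 UMIs in 31 cells.

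Counted over the 10 genes, 1 (Mfap5) rose and 1 (Fbln2) fell from E15 to E19 in the esophagus, where 2.04% of the 10881 genes compared rose and 2% fell. The median log2 ratio of the 10 was 0.51 against -0.10 for all genes. In the GE-SCJ 2 rose (Eln and Mfap5), against 2.2% of all genes, with medians of 0.52 and -0.04. In the stomach the same 2 genes rose, against 2.33% of all genes, with medians of 0.57 and -0.09. None fell in these 2 regions, where 0.565% and 1.42% of all genes did.

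Around birth more genes of all kinds changed. From E19 to the pup, 2 of the 10 rose in the esophagus (Eln and Fbln2), where 9.75% of all genes rose. In the GE-SCJ 4 rose (Eln, Fbn1, Mfap5 and Lox), against 8.53%, and in the stomach 3 rose (Eln, Fbn1 and Mfap5), against 8.96%. None fell in any region, where 9.5%, 11.4% and 9.37% of all genes did. The median of the 10 was -0.56 in the esophagus, 0.66 in the GE-SCJ and 0.28 in the stomach, against 0.02, -0.02 and 0.01 over all genes. These ratios share the E19 groups with those of E19 over E15.

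From pup to adult esophagus 2 of the 10 rose (Fbln1 and Fbln2) and 4 fell (Eln, Fbn2, Mfap2 and Lox), against 7.47% and 10.5% of 2784 genes. The median of the 10 was -0.02 against -0.01. Set directly against E15, the adult esophagus had 5 of the 10 higher (Eln, Fbn1, Mfap5, Fbln1 and Fbln2) and 3 lower (Fbn2, Mfap2 and Lox), where 15.1% and 15.4% of all genes were. This comparison shares the adult group with the previous one. Of these, Fbn1 (1.25) and Mfap5 (1.17) dropped below 2-fold when cells with a UMI of Epcam, Ptprc or Pecam1 were left out.

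**Figure D5:**
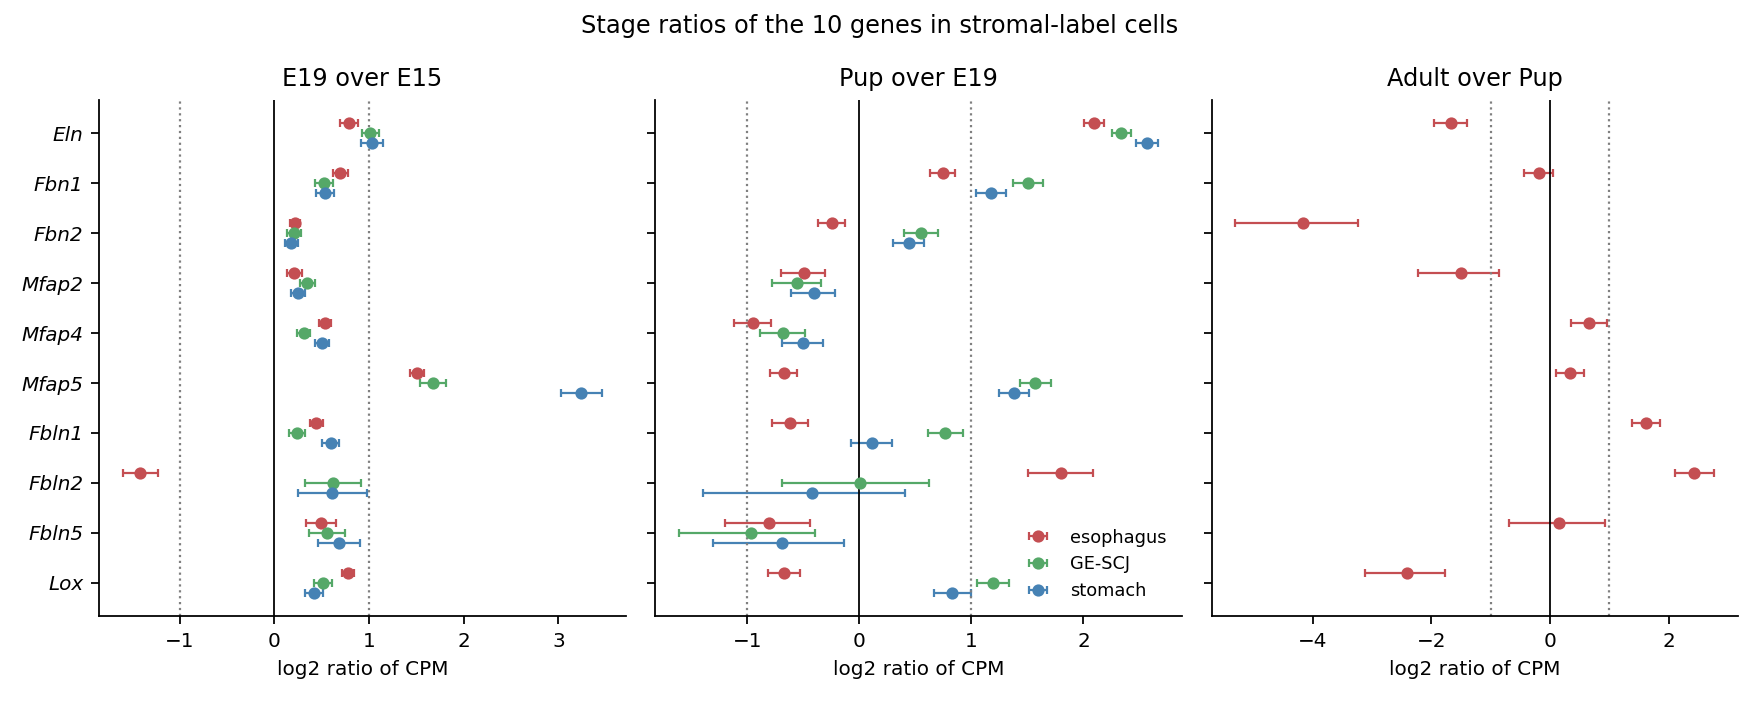
Log2 ratio of CPM for each of the 10 genes in stromal-label cells, for E19 over E15 (left), pup over E19 (middle) and adult over pup in the esophagus (right), with exact 95% intervals and regions by color. Dotted lines mark 2-fold. Eln lies right of the line in all 3 regions for pup over E19, and Fbn2 lies at -4.17 for adult over pup.

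Between regions, the differences that reached 2-fold all had the esophagus higher, at E15, E19 and in the pup alike. In stromal cells at E15, 4 of the 10 genes were at least 2-fold lower in stomach than in esophagus, where 2.9% of all genes were. These were Mfap5 (-3.41 (-3.63 to -3.19)), Fbln2 (-2.74 (-3.07 to -2.42)), Fbln5 (-1.04) and Lox (-1.02), the last 2 close to the line. In the GE-SCJ Mfap5 (-1.89) and Fbln2 (-2.11) were lower than in the esophagus, against 2.74% of all genes. None of the 10 was 2-fold higher outside the esophagus at E15, where 3.27% of all genes were in the stomach and 2.45% in the GE-SCJ.

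At E19 Mfap5 and Lox were lower in stomach (-1.67 and -1.38) and in GE-SCJ (-1.72 and -1.14) than in the esophagus, where 3.31% and 2.9% of all genes were. In the pup only Fbln2 was lower, with log2 ratios of -2.93 in stomach and -1.88 in GE-SCJ, against 3.1% and 3.25%. Again none of the 10 was 2-fold higher, against 5.14% of all genes in the stomach and 5.29% in the GE-SCJ at E19, and 2.7% and 2.11% in the pup. The median of all genes was itself shifted by up to 0.14 (stomach over esophagus at E19), and subtracting it changed none of these calls. The 6 stromal markers summed to 22547, 11557 and 8946 CPM in esophagus, GE-SCJ and stomach at E15, to 37284, 17822 and 14513 at E19 and to 23627, 25034 and 19110.0 in the pup. Before birth these markers were highest in the esophagus, as were the genes past 2-fold, and their part in the result was not tested. Mfap2 ran the other way, with the esophagus the lowest region at E15 and E19 (log2 ratios over esophagus of 0.26 and 0.33 at E15 and 0.40 and 0.36 at E19 in GE-SCJ and stomach), and Eln was higher in the GE-SCJ than in the esophagus (0.21 and 0.43), all under 2-fold.

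Smooth muscle cells, the other mesenchymal source of elastin, held lower levels of these genes than stromal cells. In the 10 groups of at least 20 cells, 6 to 10 genes were at least 2-fold lower in smooth muscle than in stroma, and none was 2-fold higher. In the esophagus 10, 9 and 10 of 10 were lower from E15 to the pup and 6 of 6 with enough UMIs in the adult, against 12.1%, 14.3%, 21.2% and 18.5% of all genes. In the GE-SCJ 7 of 10, 9 of 10 and 6 of 8 were lower, against 8.49%, 11.4% and 7.49%. In the stomach 10 of 10, 10 of 10 and 6 of 8 were, against 9.57%, 14.8% and 6.24%. Of all genes, 5.44%, 9.83%, 9.48% and 20.3% were higher in smooth muscle of the esophagus, 4.89%, 5.25% and 7.1% in the GE-SCJ and 4.96%, 5.6% and 6.67% in the stomach. The labels were made from the same counts, so this is a description.

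Smooth muscle followed the stromal course of Eln in part. Eln was at 97.9, 201, 401 and 338 CPM in esophageal smooth muscle at E15, E19, pup and adult, at 136, 333 and 669 CPM in the GE-SCJ and at 41.7, 129 and 562 CPM in the stomach at E15, E19 and pup. It rose from E19 to the pup in each region, with log2 ratios of 1.01 (0.48 to 1.53), 1.01 (0.83 to 1.19) and 2.12 (1.87 to 2.36), the first 2 close to the line. In the GE-SCJ and stomach 3 and 4 of 9 genes rose at this step, against 10.5% and 13% of all genes. In the esophagus 2 of 7 rose and 3 fell, against 5.26% and 8.97%, but 11 of its 22 pup cells had mostly prenatal neighbours.

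Mfap5 was at 31.8, 43.2, 270.4 and 64.2 CPM in esophageal, 45.6, 60.4 and 444 CPM in GE-SCJ and 18.1, 63.2 and 494 CPM in stomach smooth muscle over the same stages. Lox was at 60.9, 177, 157 and 99.2 CPM in the esophagus, 102, 139 and 614 CPM in the GE-SCJ and 42.9, 66.3 and 487 CPM in the stomach. Both were highest in the pup in the GE-SCJ and the stomach, where Mfap5 rose by 2.87 (2.58 to 3.18) and 2.96 (2.65 to 3.28) and Lox by 2.15 (1.93 to 2.37) and 2.87 (2.56 to 3.19) on the log2 scale. The cells of the label lay in different deposited clusters at the 2 stages. Of E19 cells 186 of 190 in the GE-SCJ and 154 of 160 in the stomach lay in a first deposited cluster, whereas 95 of 119 and 101 of 113 pup cells lay in a second. Over all regions and stages the first held Eln at 140.4, Mfap5 at 33.8 and Lox at 82.6 CPM and the second 841, 544 and 589 CPM. Within the first cluster of the GE-SCJ, 24 pup cells held Mfap5 at 21.2 against 53.3 CPM at E19, Lox at 42.5 against 133 CPM and Eln at 354 against 226 CPM. In the stomach, where 12 pup cells lay in it, Mfap5 was at 23.8 against 31.5, Lox at 59.6 against 49.1 and Eln at 214 against 125 CPM. Inside that cluster none of Mfap5, Lox and Eln thus rose by 2-fold in either region, on few pup cells. The clusters were made from the same counts, so these pup cells were grouped by their likeness to mostly prenatal cells. Of all pup cells of the label, 10 of 119 in the GE-SCJ and 13 of 113 in the stomach had mostly prenatal neighbours. Whether these genes rose within a given kind of cell can therefore not be told from this cluster. At E15, E19 and pup the 6 stromal markers summed to 3075, 3569.6 and 7675 CPM in the label and the 4 pericyte markers Rgs5, Kcnj8, Abcc9 and Cspg4 to 211, 294 and 1480.1 CPM, and their part in these rises, that of Eln included, was not tested.

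The fibrillins of smooth muscle followed those of stroma in part. Fbn2 was at 499, 973, 331 and 75.8 CPM in esophageal smooth muscle at E15, E19, pup and adult, and Fbn1 at 214, 208, 253 and 140.0 CPM. In the GE-SCJ Fbn2 was at 319, 347 and 469 CPM and Fbn1 at 208, 222 and 249 CPM at E15, E19 and pup. In the stomach Fbn2 was at 331, 309 and 496 CPM and Fbn1 at 150.0, 184 and 351 CPM. From pup to adult esophagus Fbn2 fell in smooth muscle as it did in stroma (-2.06 (-3.05 to -1.15)). That ratio rested on 13 adult UMIs and on 22 pup cells, of which 11 had mostly prenatal neighbours. The Fbn2 share was 70.0% (66.7 to 73.1), 82.4% (79.0 to 85.5), 56.7% (44.0 to 68.8) and 35.1% (20.2 to 52.5) in the esophagus from E15 to the adult, the last from 37 fibrillin UMIs. In the GE-SCJ it was 60.5% (57.3 to 63.7), 60.9% (58.3 to 63.5) and 65.3% (60.4 to 69.9), and in the stomach 68.8% (65.5 to 72.0), 62.7% (59.5 to 65.8) and 58.6% (54.0 to 63.0). The share was lowest at the last stage in the esophagus and stomach, as in stroma, but not in the GE-SCJ. The pup share was thus above that of stroma in the GE-SCJ and stomach, without overlap of the intervals, in pup cells that were mostly of the second cluster. Over all regions, the 4 skeletal muscle markers Acta1, Tnnt3, Mb and Ckm summed to 65.5, 299, 92.6 and 28.8 CPM in the label from E15 to the adult. In stromal cells they summed to 5.90 CPM at E19. Their part in the esophageal Fbn2 values, of which E19 was the highest, was not tested.

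Stromal-2 cells, which carry mesothelial markers, held Fbln2 and Eln with little Fbn1 and Mfap5. In the E19 GE-SCJ, 46 such cells held Fbln2 at 742 CPM against 55.6 in stromal cells of the same group (3.74 (3.52 to 3.96)). Eln was at 789 against 724 CPM, whereas Fbn1 was at 119 against 478 (-1.99) and Mfap5 at 52.6 against 450.2 CPM (-3.05). Of the 10 genes 1 was higher and 5 were lower, against 8.55% and 10.7% of all genes. In the pup stomach, 27 such cells held Fbln2 at 224 against 24.6 CPM (3.09) and Fbn2 at 25.5 against 1035 CPM (-5.08), with 1 of 9 genes higher and 7 lower, against 8.91% and 15.4%. Over all regions the Fbn2 share in Stromal-2 was 71.6%, 74.5% and 35.1% from E15 to the pup, the last from 37 UMIs.

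Endothelial cells, which line vessels whose walls are rich in elastic fibers, were too few to split by region and are given over all regions. Eln was at 24.6 (14.8 to 38.4), 207 (178 to 241), 1281 (1083 to 1504) and 388 (248 to 577) CPM from E15 to the adult, in 46, 69, 21 and 21 cells. Fbln5 was at 15.5, 45.8, 378 and 145 CPM and Fbln2 at 41.4, 121, 223 and 614 CPM. Eln and Fbln5 were thus highest in the pup and Fbln2 in the adult. The mix of regions changed too, with 13 of 21 pup cells from the GE-SCJ and 17 of 21 adult cells from the esophagus. Stage and region can therefore not be told apart in these values. The 6 stromal markers summed to 323 to 465 CPM in these cells at all stages.

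Neural cells held Mfap2 at 302, 306 and 197 CPM and Fbn2 at 185, 237 and 146 CPM from E15 to the pup, in 202, 145 and 59 cells. Fbn1 gave 39, 44 and 13 UMIs in the same cells, so that the Fbn2 share was 91.4%, 86.7% and 75.5%. Fbln2 was at 109, 163 and 573 CPM and Fbln5 at 23.3, 51.9 and 394 CPM. Both fibulins were highest in the pup, where the 6 stromal markers also summed to 6477 CPM against 682 at E15 and 1901 at E19, and their part in these values was not tested. Pup stromal cells held Fbln5 at 58.2 to 98.7 CPM by region.

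Inside the stromal label the cells fell into 4 deposited clusters that carried different members of the set. The largest, with 1409 cells, held Mfap2 at 605 and Fbln2 at 26.2 CPM. The second, with 891 cells that were mostly esophageal, held Mfap5 at 1339, Fbn2 at 1140.2 and Lox at 1042 CPM. The third, with 812 cells, held Eln at 793, Mfap2 at 674 and Mfap5 at 212 CPM. The fourth, with 330 cells of which 318 were postnatal, held Eln at 2703 and Fbn1 at 1275 CPM. It also held Mfap5 at 1193, Fbn2 at 947 and Lox at 805 CPM, genes that were high in the second as well. Since the clusters were made from the same counts, these are descriptions.

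Stromal cells were also split by a UMI of the subepithelial fibroblast markers Bmp4 or F3, in 9 groups. For the splits by marker UMIs, the share of all genes past 2-fold is not given. Positive cells held Mfap5 at least 2-fold higher in 3 of them, the E15 stomach (1.14 on the log2 scale), the pup esophagus (1.14) and the pup stomach (1.44), with a median over the 9 of 0.69 and a lowest value of -0.43. Fbn1 and Fbn2 reached 2-fold in 1 group each, the pup stomach. There 39 positive cells held Fbn2 at 1517 CPM against 543 in 39 negative cells (1.48) and Fbn1 at 1681 against 638 CPM (1.39), at median depths of 5166 and 5050 UMIs. Over the 9 groups the median log2 ratios of Fbn1 and Fbn2 were -0.0032 and -0.0018. With at least 2 marker UMIs, in 8 groups, Mfap5 and Fbn2 reached 2-fold in 1 group each and Fbn1 in 0. In the pup esophagus the positive cells were deeper, with medians of 4985 against 3543.5 UMIs, and the part of depth was not tested.

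A UMI of the adventitial markers Pi16 or Dpp4 split 3 groups, of which the E15 esophagus and the E19 GE-SCJ gave differences past 2-fold. In the E15 esophagus, with 51 positive and 296 negative cells, Fbln2 was at 496 against 80.2 CPM (2.63), Fbln5 at 269.9 against 91.4 CPM (1.56) and Eln at 539.8 against 258 CPM (1.07). In the E19 GE-SCJ, with 21 positive cells, the log2 ratios were 1.70, 1.35 and 1.04 for the same genes. In the E19 esophagus, with 182 positive cells, they were -0.36, 0.71 and -0.44, and with at least 2 marker UMIs -0.43, 1.08 and -0.15. Fbln5 was thus higher in positive cells of all 3 groups, whereas Fbln2 and Eln changed sign. Cells with a marker UMI were also deeper, with medians of 13028 against 10260 UMIs in the E15 esophagus, and the part of depth was not tested.

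The other genes of the pathway were taken as a list of 35 (latent TGF-beta binding proteins, emilins, further fibulins, lysyl oxidase-like enzymes, ADAMTS and ADAMTS-like proteins, integrin subunits, and vitronectin with proteases), of which 34 were in the table. Log2 ratios in stromal cells are given in parentheses. From E15 to E19 in the esophagus Adamtsl4 (1.71), Ltbp2 (1.31), Loxl1 (1.19) and Adamtsl5 (1.02) rose and Emilin2 (-2.60) and Ltbp1 (-2.08) fell among 27 with enough UMIs, beside 2.04% and 2% of all genes. In the GE-SCJ Adamtsl3 (2.63), Adamtsl4 (1.94), Ltbp2 (1.89), Emilin2 (1.52) and Itgb3 (1.09) rose and Emilin3 (-1.06) fell among 30, beside 2.2% and 0.565%. In the stomach Adamtsl4 (1.77), Itgb3 (1.58), Adamtsl3 (1.50), Fbln7 (1.08) and Adamtsl5 (1.02) rose and none fell among 27, beside 2.33% and 1.42%. Adamtsl4, which binds fibrillin-1 microfibrils, was thus the gene of the list that rose before birth in all 3 regions. The list medians were 0.19, 0.51 and 0.46 in esophagus, GE-SCJ and stomach.

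From E19 to the pup in the esophagus Ltbp1 (2.00), Adamts6 (1.96), Adamtsl3 (1.88), Loxl1 (1.37), Adamtsl4 (1.29) and Furin (1.19) rose and Thsd4 (-1.55), Efemp2 (-1.15) and Itga8 (-1.10) fell among 26, beside 9.75% and 9.5% of all genes. In the GE-SCJ Adamtsl2 (2.93), Adamtsl3 (2.33), Adamtsl4 (2.29), Ltbp2 (2.15), Emilin2 (1.98), Loxl1 (1.87), Efemp1 (1.63), Hmcn1 (1.40), Ctsk (1.29) and Furin (1.12) rose and Fbln7 (-2.0), Loxl3 (-1.39) and Loxl4 (-1.14) fell among 29, beside 8.53% and 11.4%. In the stomach Adamtsl3 (3.89), Adamtsl4 (1.98), Loxl1 (1.87), Ctsk (1.74) and Efemp1 (1.45) rose and Itga8 (-2.62), Fbln7 (-2.57), Thsd4 (-1.71), Efemp2 (-1.20) and Loxl4 (-1.11) fell among 26, beside 8.96% and 9.37%. Adamtsl3, Adamtsl4 and Loxl1 rose at this step in all 3 regions, and the list medians of 0.35, 0.49 and 0.22 stand beside the medians over all genes given above. From pup to adult esophagus Efemp1 (1.71), Itgav (1.48), Ltbp4 (1.07) and Ltbp1 (1.03) rose and Hmcn1 (-1.65) fell among 17, beside 7.47% and 10.5%, with a list median of 0.58.

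Loxl1, the lysyl oxidase-like enzyme that acts on elastin, was at 80.3, 183, 471 and 359 CPM in the esophagus from E15 to the adult. It was at 103, 145 and 528 CPM in the GE-SCJ and 72.3, 136 and 493 CPM in the stomach. Its adult over pup ratio in the esophagus was -0.37, where Lox fell. Ltbp4, which brings elastin to microfibrils together with Fbln5, was at 417, 720.0, 916 and 1925 CPM in the esophagus from E15 to the adult. Efemp2, encoding fibulin-4, which brings Lox to elastin, was at 157, 134, 58.9 and 86.7 CPM there. The adult esophagus thus held the highest Ltbp4 level of the 4 stages.

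Across the 10 stromal groups, the latent TGF-beta binding proteins, which bind fibrillin, ranged in CPM with Ltbp1 from 16.6 to 130.0, Ltbp2 from 1.83 to 45.7, Ltbp3 from 63.4 to 167 and Ltbp4 from 405 to 1925. The emilins and multimerins, glycoproteins found with elastin and in vessels, ranged with Emilin1 from 111 to 274, Emilin2 from 2.65 to 155, Emilin3 from 2.54 to 24.1 and Mmrn2 from 0 to 2.36, and Mmrn1 had no UMI in these groups. The further fibulins ranged with Efemp1 from 13.8 to 458, Efemp2 from 58.9 to 180.0, Fbln7 from 0 to 43.3 and Hmcn1 from 49.5 to 404, and the further lysyl oxidases with Loxl1 from 72.3 to 528, Loxl2 from 129.7 to 470.4, Loxl3 from 10.2 to 33.0 and Loxl4 from 0 to 11.1. All of these genes but Mmrn1, Mmrn2, Fbln7 and Loxl4 were therefore found in every stromal group.

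Between regions at E15, Adamtsl3 (-3.55), Efemp1 (-3.17), Emilin2 (-2.68), Hmcn1 (-1.58), Ctsk (-1.46) and Emilin3 (-1.37) were lower in stomach than in esophagus among 26 genes of the list. In the GE-SCJ Adamtsl3 (-3.70), Efemp1 (-3.30), Emilin2 (-2.90), Ctsk (-1.33), Hmcn1 (-1.32) and Emilin3 (-1.06) were lower among 26. None was higher at E15, where 2.9% and 2.74% of all genes were lower and 3.27% and 2.45% higher in stomach and GE-SCJ. At E19 Adamtsl3 (-2.53), Efemp1 (-1.75), Ltbp2 (-1.61), Emilin3 (-1.36), Ctsk (-1.25) and Thsd4 (-1.12) were lower and Fbln7 (2.84), Loxl4 (2.62) and Ltbp1 (2.07) higher in the stomach among 28, beside 3.31% and 5.14%. In the GE-SCJ at E19 Efemp1 (-2.01), Emilin3 (-1.85), Adamtsl3 (-1.55), Thsd4 (-1.48) and Adamtsl5 (-1.06) were lower and Loxl4 (2.83), Ltbp1 (2.49), Fbln7 (2.44), Emilin2 (1.23) and Adamts6 (1.11) higher than in the esophagus among 29, beside 2.9% and 5.29%. In the pup Adamtsl3 (-1.10) was lower and Hmcn1 (1.21) higher in the GE-SCJ among 18, beside 3.25% and 2.11%, and none of 18 passed in the stomach, beside 3.1% and 2.7%. Before birth the list thus held genes of both directions at E19 and of 1 direction at E15.

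The pattern of each gene was last set beside those of other genes as Pearson's r of log2 CPM (10 CPM added), a description in which all groups come from 1 pooled library. Over the 10 stromal groups, Fbn1 and Fbn2 had an r of -0.10, while Eln and Fbn1 had 0.89, Fbn2 and Lox 0.87, Fbn2 and Mfap2 0.83, Fbn1 and Mfap5 0.83, and Mfap2 and Fbln2 -0.91. Over 55 groups of all labels, r of Fbn1 and Fbn2 was 0.84. Among the stromal groups, 2 of these values change sign with the adult esophagus. Without it r of Fbn1 and Fbn2 was 0.73 and that of Fbn2 and Mfap2 -0.59, and Spearman's rho over the 10 groups was 0.39 and -0.14. The other 4 pairs kept their sign, with rho of 0.88, 0.84, 0.79 and -0.67 in the order above. The lists of closest genes over stromal groups include the adult esophagus and were not computed without it. Among 11850 genes, those closest to Fbn1 in the stromal groups were Adamtsl4, Htra3, Ms4a4d, Fstl1 and Tmem59 (0.99 to 0.98), and those closest to Fbn2 were Narf, Tex261, Rps27, Rap1gds1 and Tusc1 (all 0.97). Over the 55 groups and 14658 genes, Fbn1 was closest to Mrc2, Islr, Col6a2, Mgp and Htra3 (0.92 to 0.90) and Fbn2 to Mfap2, Tpst1, Emilin1, Efemp2 and Myh10 (0.91 to 0.88), so that the gene most like Fbn2 across cell types was its microfibril partner Mfap2.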

How the data were processed

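Single cells of 3 regions and 4 stages were tagged with CellPlex oligonucleotides, pooled and sequenced with 10x Genomics 3′ chemistry. The authors counted UMIs with Cell Ranger 6.1.1 on mm10 (per the labels), removed doublets and poor barcodes by cutoffs on detected genes, on UMIs and on the mitochondrial percentage, and deposited raw UMI counts without normalization together with a tag and a cell label for each cell. That percent is a column the authors deposited beside these labels. In all 7808 cells the UMI total equalled the deposited total, and no barcode occurred under more than 1 tag (0 shared). The number of mice per stage is given as in the labels, and the methods state it otherwise.

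UMIs were summed over the cells of each label, region and stage. Ratios between groups were formed for groups of at least 20 cells and genes with at least 50 UMIs over both groups, with 1 UMI added to each sum. With 1 pooled sample per region and stage no test was run. Genes were called higher or lower at 2-fold. The share of all genes so called is printed beside the counts between stages, regions and labels, but not for the splits by marker UMIs. Stromal groups held 117209 to 6979256 UMIs, so that the smallest group resolves levels of about 25.6 CPM, the level of 3 counts.

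The 10 genes, the list of 35 further pathway genes and the marker lists were chosen with earlier results of these data known. The rule for names took the 10 genes throughout, genes of the list past 2-fold with at least 50 UMIs, the latent TGF-beta binding proteins, emilins, fibulins and lysyl oxidases whatever their value, and the 5 genes most like Fbn1 and Fbn2. Genes of the list whose full series of levels is given were chosen after their values were seen. Neighbours were computed from 30 principal components of 2000 variable genes with 15 neighbours, after scaling to 10000 UMIs and taking logarithms. Clusters are those the authors deposited. Thinning used seed 1. Alternatives used CPM computed per cell and then averaged, only cells of 1000 or more UMIs and no more than 10% mitochondrial counts, a library size without mitochondrial, ribosomal protein and hemoglobin genes, and sums without the 1% of cells highest in a gene. Further alternatives left out the 486 stromal cells with a UMI of Epcam, Ptprc or Pecam1, or cells whose neighbours lay mostly on the other side of birth, added 0.5 UMI, thinned cells to 2000 UMIs, or subtracted the median of all genes. The same exclusion with 1 further marker gene is not reported here. Scrublet (6% expected doublets) called 1 cell and was taken as not having worked. The ratio and its interval were run on simulated Poisson counts with large planted changes. Those counts hold no spread between cells or mice, so the run covers counting error only. Neighbours were found with scanpy 1.11.5 and scikit-learn 1.9.0. Sums and intervals were computed in pandas 2.3.3, numpy 2.4.6 and scipy 1.17.1 under Python 3.11.15, and plots were drawn with matplotlib 3.10.9. Coordinates are from GENCODE M21 and promoter windows from RefSeq on GRCm38.p6.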

Additional observations from a re-analysis of the deposited data

Results flagged for a closer look

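In stromal cells, 4 of the 10 genes moved in opposite directions between regions at the same step of development, by log2 ratios of at least 0.5 each way. The share of all genes that did so is not given here. Each region and stage is 1 pooled sample, so none of these differences between regions was tested. Mfap5 had a pup over E19 log2 ratio of -0.67 in the esophagus against 1.57 in the GE-SCJ and 1.38 in the stomach, differences of -2.25 and -2.05. Lox had -0.67 in the esophagus against 1.20 in the GE-SCJ and 0.83 in the stomach, differences of -1.87 and -1.50. Fbln1 had -0.62 in the esophagus against 0.77 in the GE-SCJ, a difference of -1.39. At the step from E15 to E19, Fbln2 had -1.41 in the esophagus against 0.62 in the GE-SCJ and 0.61 in the stomach, differences of -2.03 and -2.02. All of these turn on the esophagus, where the prenatal levels of Mfap5, Lox and Fbln1 at E19 and of Fbln2 at E15 were above those of the other regions.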

How the results depend on the processing

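No called ratio was reversed under any alternative. Levels and shares have no sign to reverse, but many left their intervals. Of 110 levels, 97 did so without mitochondrial, ribosomal protein and hemoglobin genes in the library size. After thinning to 2000 UMIs 46 did, and 40 did without the 1% of cells highest in a gene. Thinning also moved 24 of 80 stage ratios and 3 of 11 fibrillin shares out of their intervals. Over the 10 stromal groups, r of Fbn1 and Fbn2 turned from -0.10 to 0.73 without the adult esophagus and to 0.39 as Spearman's rho, and r of Fbn2 and Mfap2 from 0.83 to -0.59 and -0.14, both added after seeing the data. The Fbn2 share of the fibrillin UMIs in pup esophageal stroma was 44.8% from summed UMIs, 47.8% from CPM computed per cell and then averaged and 51.5% after thinning to 2000 UMIs, and the cause was not tested. Every other alternative left it within its interval, and the adult esophageal share stayed between 4.42% and 6.35%. The choice of cells by the postnatal and prenatal clusters and that without cells holding Epcam, Ptprc or Pecam1 were added after seeing the data. Of 80 stage ratios in stroma, 29 reached 2-fold, and single alternatives lost 0 to 2 and gained 0 to 2 of these calls. Of 60 region ratios 12 reached it, with 0 to 1 lost and 0 gained. Of 120 ratios between labels 101 did, with 0 to 10 lost and 0 to 5 gained. These 120 include ratios of genes with under 50 UMIs over both groups, which are left out of the counts in the results. Eln from E15 to E19 dropped from 1.01 to between 0.80 and 0.99 in the GE-SCJ under 4 alternatives and from 1.03 to 0.99 in the stomach under 1. Fbln5 in stomach against esophagus at E15 dropped from -1.04 to between -0.94 and -0.82 under 4. Lox from E19 to the pup in the stomach reached 1.00 and 1.11 without cells placed on the other side of birth. No paired analysis was possible because each region and stage is 1 pooled sample without replicates, so no replicate could be left out either. Levels of the adult esophagus rest on 31 stromal cells and those of the adult GE-SCJ on 15. Over all regions, pup stromal cells had under 50% of the prenatal median depth. In the stomach their median was 5072.5 UMIs against 9858 at E15 and 9025 at E19.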
